A study of Mus musculus with 20 samples.

Results

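The data described here come from mouse nephron progenitor cells (NPCs) in which the β-catenin gene *Ctnnb1* was targeted, cultured in low or high CHIR. The 3 libraries labelled with 5 µM CHIR and *Ctnnb1* guides were compared with the 3 libraries labelled with 1.25 µM CHIR and the same guides, and libraries were paired by the date in their labels. These are 6 of the 20 libraries of the series. The comparison asks what CHIR still changes in the transcriptome when β-catenin is targeted.

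CHIR is a small molecule inhibitor of GSK3β, which phosphorylates β-catenin within the destruction complex and so targets it for degradation. Inhibiting it stabilizes β-catenin, which enters the nucleus and activates Wnt target genes with Lef/Tcf factors. In the kidney, a low Wnt signal goes with renewal of Six2-expressing progenitors, and a strong signal induces them to form the renal vesicle through genes such as *Wnt4*, *Jag1* and *Lhx1*. GSK3 kinases also act on many proteins other than β-catenin.

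All cells carried the Cas9-eGFP genotype and were primary kidney NPCs. β-Catenin KO cells received sgRNAs against *Ctnnb1*, and CTRL cells, used here for comparison, received sgRNAs against GFP in the same 1.25 or 5 µM CHIR, with 3 libraries per condition. The knockout period was 48 h, and transfected cells were sorted on an mCherry reporter, so each library is a pool of transfected cells and not a clone. The remaining 8 libraries, of α-catenin KO and of combined cadherin KO (QCKO) cells, served to estimate the spread.

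The 4 guides listed for *Ctnnb1* are shown because they define the perturbation, with their 10 PAM-proximal bases in capitals. There are 3 distinct sequences, since the entries named for guides 5 and 6 are the same.

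Ctnnb1_sgRNA1-exon2: atgagcagcgTCAAACTGCG

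Ctnnb1_sgRNA3-exon3: agccaagcgcTGGACATTAG

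Ctnnb1_sgRNA5-exon3: gagattatgcAGTGTCGTGA

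Ctnnb1_sgRNA6-exon6: gagattatgcAGTGTCGTGA

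Their names give exons 2, 3 and 6 of *Ctnnb1*, but the shared sequence carries an exon 3 and an exon 6 name, so the exon it targets is not settled here. Low CHIR libraries held 18686329 to 26790287 recovered reads, and high CHIR libraries 18846350 to 24679361. No identifier could be paired with *Ctnnb1*, so the level of the targeted transcript was not analysed here. β-Catenin KO is therefore used as the name of the labelled group, without a check of the knockout in any library. All 7 progenitor markers (*Foxc2*, *Wt1*, *Six2*, *Osr1*, *Cited1*, *Meox2* and *Eya1*) were detected in all 6 libraries. The study describes its sequenced samples as biological replicates, but in a smaller number than the dates used here, and the labels do not say whether dates stand for separate animals. The p-values therefore measure the spread between these libraries, which may be technical.

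The β-catenin KO libraries fell into 2 kinds by date, which bears on every result below. *Axin2*, a feedback inhibitor of the pathway, had normalized counts of 14.0, 560 and 384 on dates 1, 2 and 3 at low CHIR, and of 18.5, 743 and 687 at high CHIR. *Notum*, a secreted Wnt deacylase, had 1.07, 562 and 325 in low and 4.62, 407 and 578 in high CHIR. *Sp5*, a transcription factor induced by Wnt, had 0, 83.0 and 59.3 in low and 1.16, 68.7 and 88.5 in high CHIR. Date 1 was thus near the bottom for these genes in both conditions, whereas dates 2 and 3 held high levels already in low CHIR.

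In CTRL cells the same genes were low in low CHIR and high in high CHIR on every date. *Axin2* had 39.3, 71.5 and 61.4 in low against 357, 435 and 391 in high CHIR, and *Notum* had 3.57, 6.5 and 5.29 against 102, 312 and 125. The date 2 and 3 β-catenin KO libraries in low CHIR therefore lay within or above the CTRL range of high CHIR for *Axin2* and *Notum*. Over the 500 most variable genes, date 1 had scores of -50.8 and -31.1 on the first principal component (53.9% of variance) and of 7.23 and 4.46 on the second (20.5%). Dates 2 and 3 ran from -6.19 to 14.3 on the first and from -46.8 to -35.6 on the second, where every other library of the series was at 4.46 or above. For *Axin2*, *Notum* and *Sp5* the levels of dates 2 and 3 at low CHIR thus go against the group name. At low CHIR *Lef1* (660 and 532) and *Wnt4* (831 and 634) on dates 2 and 3 also lay above CTRL at low CHIR (62.5 to 72.6 and 41.1 to 72.6). Both lay below CTRL at high CHIR (948 to 1465 and 4156 to 5401). At high CHIR *Six2* (409 and 468) on these dates lay above CTRL at high CHIR (64.1 to 83.9). Why the dates differ was not tested.

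**Figure D1:**
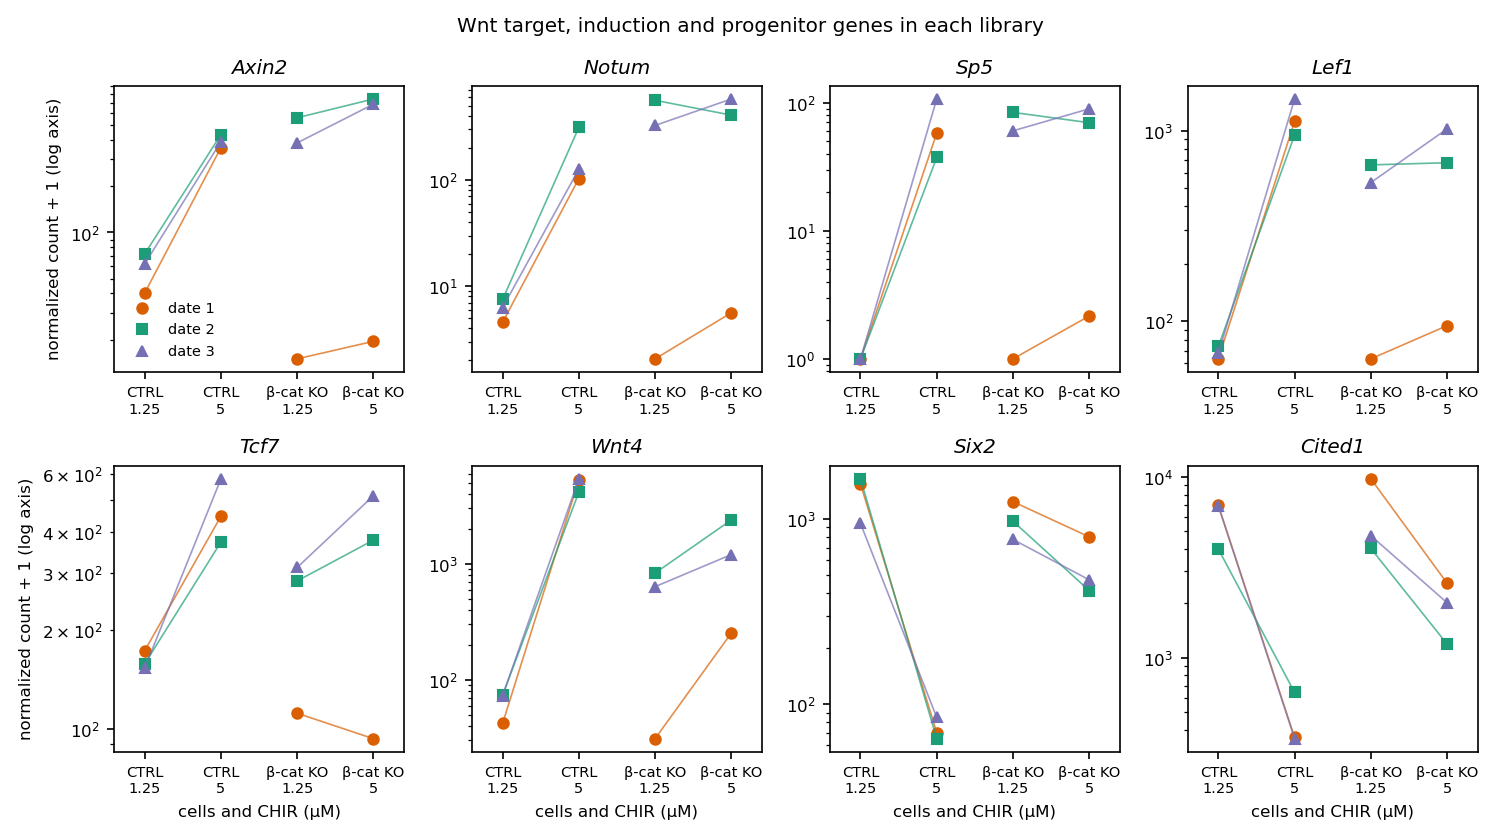
Normalized count plus 1 (log axis) of 8 genes in each CTRL and β-catenin KO library at 1.25 and 5 µM CHIR, with a line joining the 2 libraries of a date. For *Axin2*, *Notum*, *Sp5* and *Lef1* the date 1 β-catenin KO libraries lie far below those of dates 2 and 3 in both conditions, while the 3 CTRL dates move together.

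In the libraries labelled β-catenin KO few genes passed the test for an effect of CHIR. Of 16691 genes tested, 40 were called (0.24%), 25 higher (0.15%) and 15 lower (0.0899%) in high CHIR, calling a gene where the adjusted p was below 0.05 and the log2 change exceeded 0.5 either way (limma with the date as a block, Benjamini-Hochberg). In CTRL cells the same fit called 2910 genes (17.4%), 1245 higher (7.46%) and 1665 lower (9.98%). The contrast depends on the fit, since with each comparison fitted on its own 6 libraries 225 genes were called in β-catenin KO and 906 in CTRL. The called changes ranged in size from 0.67 to 4.37 on the log2 scale, and all 40 had the same sign in the 3 date pairs, which 33.2% of all tested genes had. In 34 of the 40 the high and low CHIR libraries did not overlap, against 9.35% of all tested genes.

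The count depended on the fit. Without the date block 3 genes were called (*Sst*, *Apom* and *Mmp9*), with the 12 β-catenin KO and CTRL libraries 12, with edgeR 45 and with DESeq2 197. Leaving out 1 library gave 7 genes without low CHIR date 1, 13 without low CHIR date 2, 13 without high CHIR date 3, 17 without high CHIR date 2, 30 without low CHIR date 3 and 53 without high CHIR date 1. Without both date 1 libraries 19 genes were called, 11 of them among the 40. The 11 were *Sst*, *Apom*, *Robo2*, *Frat1*, *Snai2*, *Mmp13*, *Mmp9*, *Crybb3*, ENSMUSG00000018217, ENSMUSG00000031129 and ENSMUSG00000029762. All other called genes named below lost their call then, with the same direction of change, among them *Heyl* (adjusted p = 0.109), *Hsd17b14* (0.107), *Cspg4* (0.0817), *H19* (0.0843), *Npl* (0.121), *Pgf* (0.0833), *Meis1* (0.0657), *Tgfbi* (0.125) and *Cited1* (0.164). The 8 genes called then but not with all dates were all higher in high CHIR and include *Nefh* (5.43) and *Mmp10* (4.36). These and ENSMUSG00000029762 were named after their values were seen. With the date 1 pair as the only β-catenin KO libraries none was called, with 1247 at an unadjusted p under 0.05. The sizes moved less than the calls: all 40 genes changed by over 0.5 (log2) in the date 1 pair and in the mean of the date 2 and 3 pairs, with median absolute changes of 1.77 and 1.58. Since all dates were used to choose the 40, these sizes are a description. *Sst*, *Apom*, *Robo2* and 2 genes with no symbol, ENSMUSG00000018217 and ENSMUSG00000031129, were called whichever single library was left out.

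**Figure D2:**
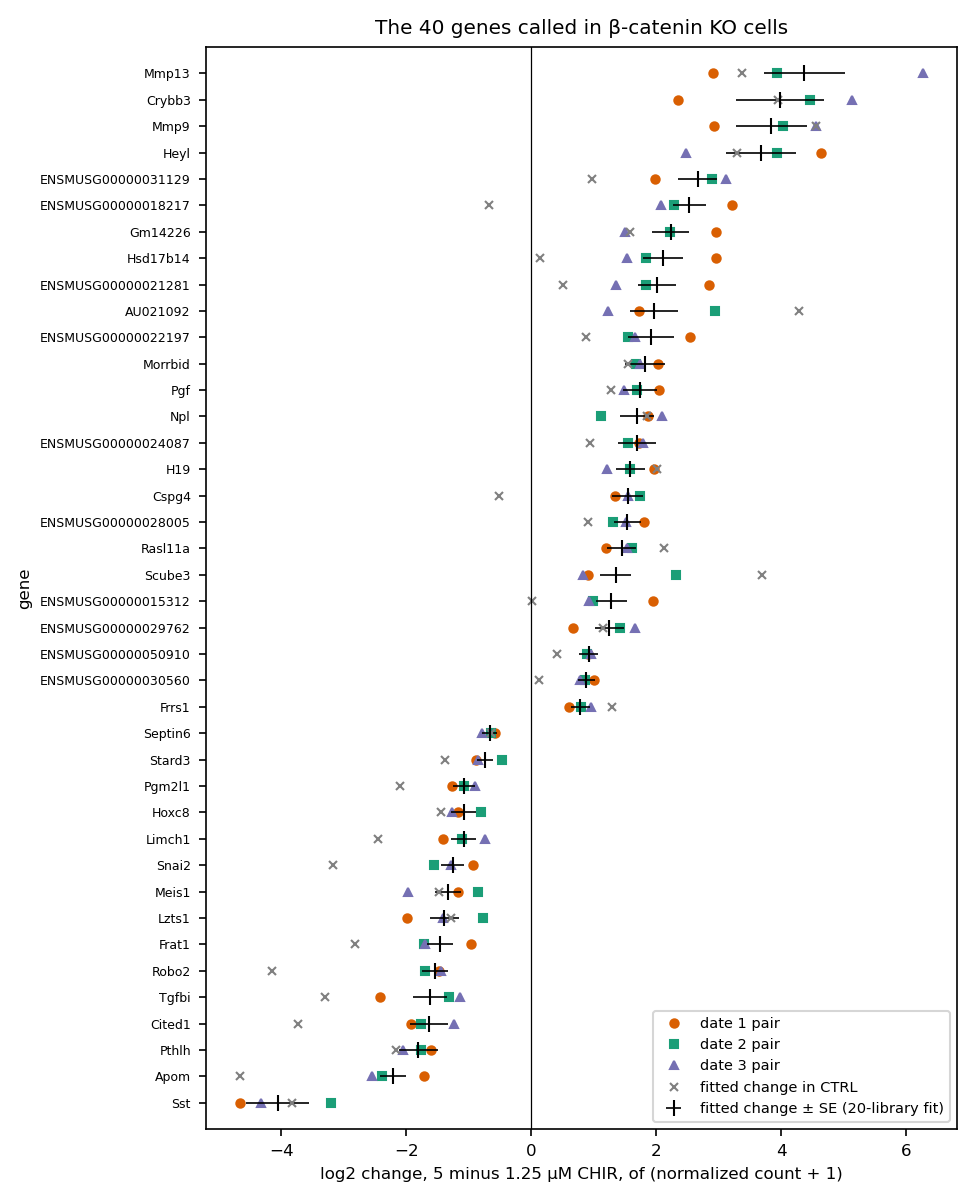
Log2 change from 1.25 to 5 µM CHIR of the 40 genes called in β-catenin KO cells, with 1 point per date pair, the fitted change ± SE as a bar and the fitted change in CTRL as a cross. All 3 points lie on the same side of 0 for each gene, and the CTRL crosses of 12 of the 15 genes that fell lie further to the left than the fitted β-catenin KO change.

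Among genes that fell, the largest change was in *Sst*, which encodes the peptide hormone somatostatin. *Sst* had 258, 100.0 and 158 normalized counts on dates 1 to 3 at low CHIR, against 9.24, 9.97 and 6.94 at high CHIR. All 3 high CHIR libraries lay below all 3 low CHIR ones. The change was -4.06 ± 0.50 (log2, SE; adjusted p = 0.00268). In CTRL cells *Sst* changed by -3.82, and the responses of the 2 kinds of cell differed by -0.24 ± 0.70 (adjusted p = 0.902). The fall was seen on date 1 (-4.66) and on dates 2 and 3 (-3.20 and -4.32).

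*Apom*, an apolipoprotein that carries sphingosine-1-phosphate, fell from 206, 270 and 265 to 62.4, 51.0 and 44.2 normalized counts, with no overlap. Its change was -2.22 ± 0.21 (adjusted p = 0.000306), the smallest adjusted p of the comparison. In CTRL it fell from between 382 and 455 to between 13.6 and 17.1, a change of -4.67, and the responses differed by 2.45 (adjusted p = 0.000328). High CHIR libraries thus kept 21.3% of the low CHIR mean in β-catenin KO cells and 3.70% in CTRL cells.

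*Robo2*, a Slit receptor that acts in kidney development, had 7748, 4706 and 4627 in low and 2787, 1453 and 1696 in high CHIR (-1.54 ± 0.21, adjusted p = 0.00636). *Frat1*, whose product binds and inhibits GSK3, had 190, 177 and 239 in low and 97.0, 53.2 and 72.9 in high CHIR (-1.46 ± 0.20, adjusted p = 0.00652). Neither overlapped between conditions, and both fell further in CTRL (-4.16 and -2.82), with the differences called at adjusted p = 0.000208 and 0.0191. The call of *Frat1* was lost without low CHIR date 2 (adjusted p = 0.0513).

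*Cited1*, a transcriptional coactivator that marks self-renewing progenitors, had 9769, 4020 and 4732 in low and 2583, 1188 and 2012 in high CHIR. The groups did not overlap, and the change was -1.64 ± 0.31 (adjusted p = 0.0426) against -3.73 in CTRL, a difference of 2.09 (adjusted p = 0.0197). *Cited1* was close to the threshold and was called with none of the 6 libraries left out in turn, with changes of -1.80 to -1.36 and adjusted p of up to 0.263. *Snai2*, a zinc finger repressor, had 5158, 2631 and 2156 in low and 2691, 894 and 884 in high CHIR. Its date 1 value in high CHIR exceeded the date 2 and 3 values in low CHIR, so that the groups overlapped although it fell within each date (-1.26 ± 0.19, adjusted p = 0.00848).

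The other genes that fell and met the naming rule were *Pthlh* (parathyroid hormone-related peptide, -1.81), *Tgfbi* (a matrix protein, -1.62), *Lzts1* (-1.39), the homeobox genes *Meis1* (-1.34) and *Hoxc8* (-1.08), and *Limch1* (an actin-binding protein, -1.08). Of the 15 genes that fell, all were also called lower in CTRL. For 8 of the 15 the difference between responses was called, and in all 8 the fall in CTRL was the larger one. All of the 15 except *Sst*, *Apom* and *Robo2* lost their call on leaving out at least 1 library, *Meis1* and *Tgfbi* with adjusted p of up to 0.0692 and 0.108.

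**Figure D3:**
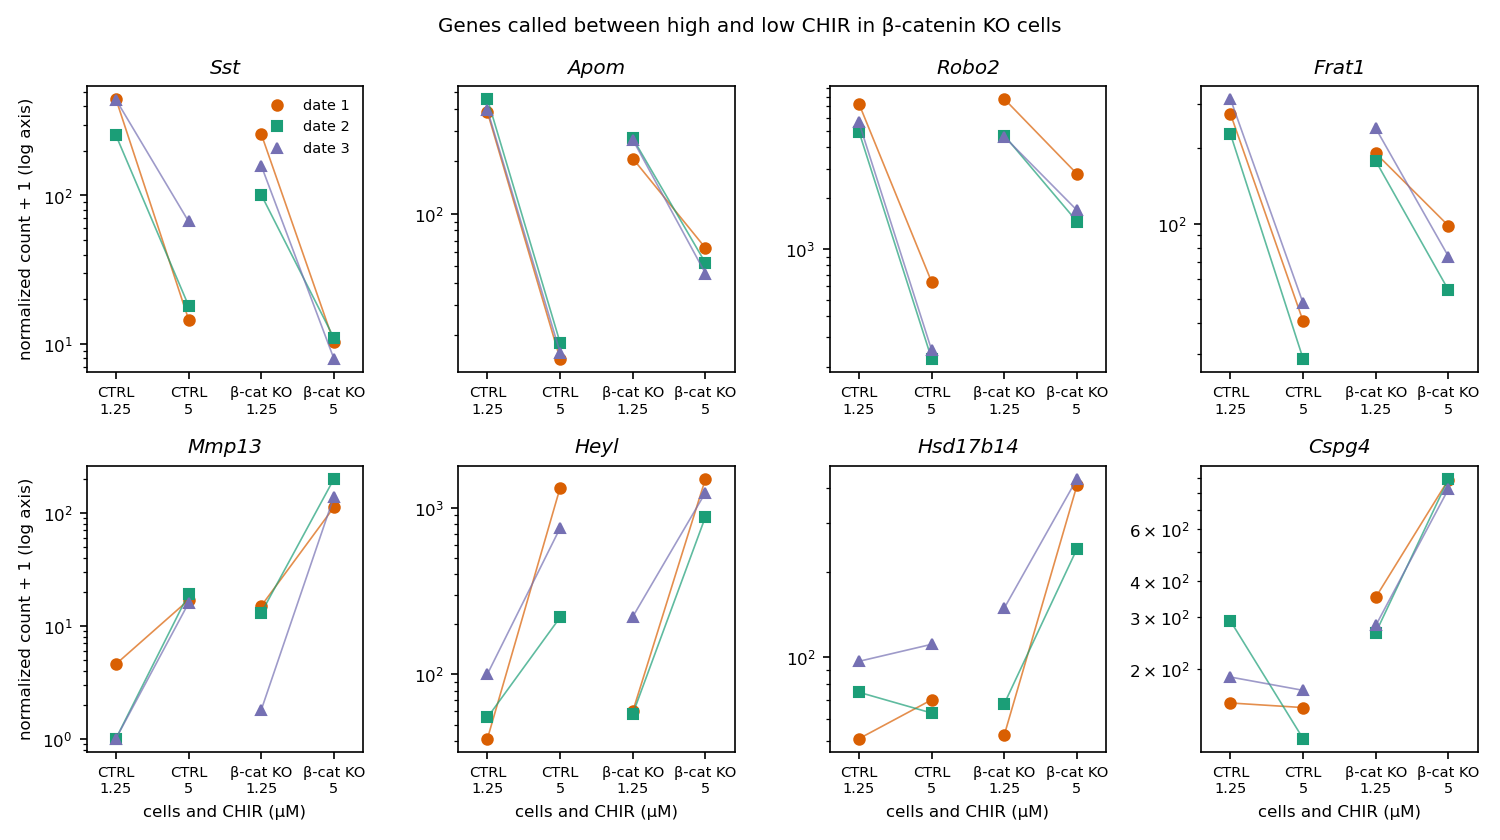
Normalized count plus 1 (log axis) of 8 called genes in each CTRL and β-catenin KO library, with a line joining the 2 libraries of a date. *Sst* falls and *Mmp13* is higher at high CHIR in both kinds of cell, *Mmp13* at lower levels in CTRL at high CHIR, *Apom*, *Robo2* and *Frat1* fall further in CTRL, and *Hsd17b14* and *Cspg4* rise in β-catenin KO cells while their CTRL libraries show no common rise.

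*Mmp13*, a collagenase, had 14.0, 12.0 and 0.80 normalized counts at low CHIR against 111, 198 and 138 at high CHIR, with no overlap (4.37 ± 0.65, adjusted p = 0.00848). Its size depends on the pseudocount, since 1 low CHIR library was near 0, and with a pseudocount of 5 it was 3.61, below the 3.82 of *Mmp9*. *Mmp9*, a gelatinase, had 320, 318 and 141 in low and 2431, 5222 and 3353 in high CHIR (3.84 ± 0.57, adjusted p = 0.00848). The responses in CTRL were 3.38 (from 3.57, 0 and 0 at low CHIR, so it depends on the pseudocount too) and 4.56, and neither difference was called (adjusted p = 0.637 and 0.70). CTRL libraries had 9.53 to 17.0 normalized counts of *Mmp9* at low CHIR and 110 to 735 at high CHIR, below all β-catenin KO libraries of the same CHIR, a difference in level that was not tested. *Mmp13* lost its call without high CHIR date 2 or 3, and *Mmp9* without low CHIR date 1 or high CHIR date 2 or 3, with adjusted p of up to 0.0701 and 0.0717.

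*Heyl*, a transcriptional repressor induced by Notch, had 59.1, 57.0 and 221 in low and 1489, 882 and 1232 in high CHIR. Every high CHIR library was above every low CHIR one, and the change of 3.68 ± 0.57 (adjusted p = 0.00978) was set beside 3.30 in CTRL (difference adjusted p = 0.858). Its call was lost without low CHIR date 1 or 2 or high CHIR date 2 (adjusted p of up to 0.0887). *Crybb3*, a lens crystallin, had 2.15, 68.0 and 12.8 in low and 15.0, 1524 and 485 in high CHIR. It rose within each date, but its level differed widely between dates, and the groups overlapped (3.98 ± 0.70, adjusted p = 0.0253, lost without any of 5 of the 6 libraries).

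*H19*, an imprinted long noncoding RNA, had 4218, 6960 and 10899 in low and 16512, 20759 and 25356 in high CHIR (1.59 ± 0.23, adjusted p = 0.00848). *Npl*, a lyase of sialic acid, had 775, 1122 and 474 in low and 2830, 2423 and 2036 in high CHIR (1.69 ± 0.27, adjusted p = 0.0129). *Pgf*, a ligand of the VEGF family, had 315, 196 and 211 in low and 1297, 638 and 592 in high CHIR (1.74 ± 0.28, adjusted p = 0.0129). None of the 3 overlapped between conditions, and their CTRL changes were 2.01, 1.86 and 1.28. Calls were lost on leaving out 2 of the 6 libraries in turn for *H19* and 4 of the 6 for *Npl* and *Pgf*. The noncoding RNA *Morrbid* (1.82), the predicted gene *Gm14226* (2.23) and the small GTPase *Rasl11a* (1.45) were called higher as well (adjusted p = 0.0253, 0.00636 and 0.0129), and in CTRL too. With 1 library left out in turn, *Morrbid* was called in 0 of 6 fits (adjusted p of up to 0.134), *Rasl11a* in 1 of 6 (up to 0.105) and *Gm14226* in 5 of 6 (up to 0.0615).

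Of the 25 genes that rose, 17 were called higher in CTRL and 8 were not called there. The 8 include *Hsd17b14*, a hydroxysteroid dehydrogenase, with 51.6, 67.0 and 148 normalized counts in low against 408, 242 and 430 in high CHIR. Its change was 2.11 ± 0.32 (adjusted p = 0.00848), against 0.14 in CTRL, and the responses differed by 1.97 ± 0.45 (adjusted p = 0.0298). *Cspg4*, a cell surface proteoglycan also called NG2, had 350, 265 and 280 in low and 886, 891 and 823 in high CHIR (1.54 ± 0.25, adjusted p = 0.0139). In CTRL *Cspg4* changed by -0.51 (adjusted p = 0.168), and the responses differed by 2.06 ± 0.36 (adjusted p = 0.00547). Neither gene overlapped between conditions, and the call in β-catenin KO cells was lost without some libraries, 3 of 6 for *Hsd17b14* and 5 of 6 for *Cspg4*.

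The other 6 of the 8, like 10 of the 40 in all, have no symbol, because symbols are given only for genes in the authors' tables of comparisons. The largest of these rises with a called difference was in ENSMUSG00000018217, which had 603, 240 and 331 in low and 5631, 1175 and 1397 in high CHIR. It changed by 2.53 ± 0.26 (adjusted p = 0.000644) against -0.67 in CTRL (adjusted p = 0.0877), a difference of 3.20 (adjusted p = 0.000257). ENSMUSG00000031129 had 76.3, 25 and 17.6 in low and 304, 192 and 160 in high CHIR (2.66 ± 0.32, adjusted p = 0.00258), and rose in CTRL as well (0.98, adjusted p = 0.0447).

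Set against the CTRL response, the β-catenin KO response was small for most genes. The CTRL and β-catenin KO comparisons share no library. Both come from 1 fit with a common spread and date effect for each gene, however, so their calls are not independent. Of the 40 called genes, 32 were also called in CTRL, 80% of the 40 and 1.1% of the 2910, and all 32 moved the same way. Of all tested genes, 17.4% were called in CTRL. The 1245 genes called higher in CTRL had a median change of 1.17 there and 0.31 in β-catenin KO cells (0.31, 0.34 and 0.26 in the 3 date pairs). The 1665 called lower had a median of -1.20 in CTRL and -0.21 in β-catenin KO cells (-0.33, -0.20 and -0.14). The median over all tested genes was 0.03 in β-catenin KO cells. The CTRL medians are those of genes chosen by that change, so they are larger than a fresh sample would give.

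The difference between the 2 responses was called for 400 genes (2.4%), 293 of them (1.76%) above and 107 (0.641%) below the CTRL response. It was called for 105 of the genes higher in CTRL and 286 of those lower in CTRL, in each case with the weaker response in β-catenin KO cells. These genes were chosen by their CTRL change, which is part of the difference, so this direction was largely fixed in advance. Without the date block the count was 112, with the 12 libraries 193, and with DESeq2 781. It was 408 without date 1 and 151 with date 1 alone. Single libraries that moved it by over 1.5 times were low CHIR date 3 (214 without it), high CHIR date 1 (260) and high CHIR date 3 (243) of β-catenin KO, and low CHIR date 2 (253) and date 3 (206) of CTRL.

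**Figure D4:**
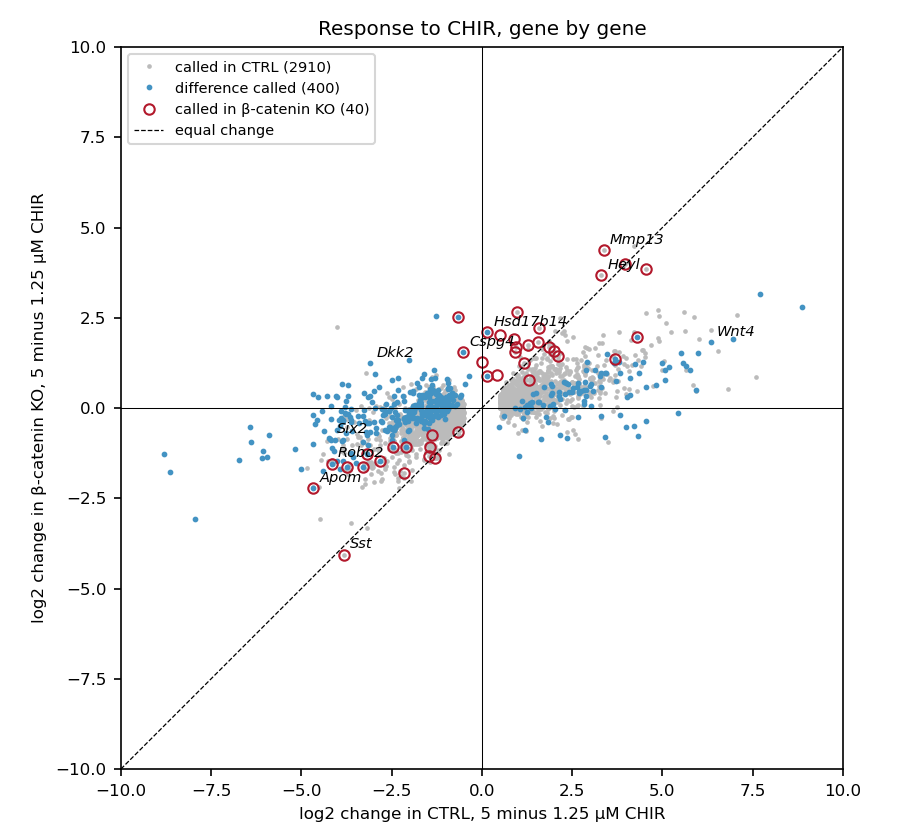
Log2 change from 1.25 to 5 µM CHIR in β-catenin KO cells against that in CTRL cells for the 2910 genes called in CTRL, the 400 with a called difference and the 40 called in β-catenin KO. Genes called in CTRL crowd toward the horizontal axis, with median changes of 0.31 and -0.21 in β-catenin KO cells, while *Sst* and *Heyl* lie within 0.38 of the dashed line of equal change and *Mmp13* within 0.99.

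Among called differences of genes with a symbol and a mean of at least 50 in β-catenin KO libraries, the 5 largest above CTRL were in *Ch25h* (cholesterol 25-hydroxylase), *Ntsr1* (neurotensin receptor), *Nxph1*, *Meox2* and *Fgf1*, all of which high CHIR nearly removed in CTRL. In CTRL, *Ch25h* had 1644, 1768 and 1385 normalized counts at low CHIR against 2.27, 12.8 and 0 at high CHIR, but 2316, 1843 and 1412 against 1360, 530 and 587 in β-catenin KO cells. *Ntsr1* was at 0 in all 3 high CHIR CTRL libraries, at least 153-fold below the low CHIR mean against a floor of 3 reads per library. In β-catenin KO cells it had 245, 204 and 332 in low and 38.1, 66.5 and 158 in high CHIR (-1.77, adjusted p = 0.242). With only the 6 libraries of the comparison *Ntsr1* (adjusted p = 0.0258), *Fgf1* (0.0271), *Ch25h* (0.0195) and *Meox2* (0.0354) were called lower in β-catenin KO cells, as were *Ntsr1* with edgeR (0.0373) and *Ntsr1* and *Fgf1* with DESeq2 (0.00149 and 0.000739). *Fgf1*, a growth factor, kept 35.0% of its low CHIR mean in β-catenin KO and 0.83% in CTRL (difference 5.28, adjusted p = 5.26e-05).

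By the same limits, the 5 largest called differences below CTRL were in *Cd200* (-4.70), *Wnt4* (-4.51), *Vegfc* (-4.49), *Rnase12* (-4.48) and *Gap43* (-4.34). None of the 5 was called in β-catenin KO cells with all 20 libraries, but with only the 6 libraries of the comparison *Wnt4* (adjusted p = 0.0347), *Gap43* (0.0199) and *Rnase12* (0.0483) were called higher. *Vegfc*, a ligand of lymphatic growth, reached 413 to 627 normalized counts in high CHIR CTRL libraries and 16.2, 167 and 72.0 in β-catenin KO ones. *Gap43*, a growth cone protein, had 62.3, 243 and 138 in low and 142, 523 and 375 in high CHIR, a change of 1.24 ± 0.47 (adjusted p = 0.506) against 5.58 in CTRL. CTRL libraries had 6.25, 16.25 and 4.23 of *Gap43* in low and 293, 401 and 607 in high CHIR. Low CHIR means were also higher in β-catenin KO than in CTRL for *Cd200* (202 and 17.7), *Wnt4* (498 and 61.9), *Vegfc* (29.0 and 9.80) and *Rnase12* (155 and 41.9). On date 1 the last 3 were not above CTRL (30.1, 11.8 and 22.6 in β-catenin KO). These differences in level were not tested.

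The 7 self-renewal genes had smaller responses than in CTRL. In CTRL all 7 were called lower, with a median change of -3.73, against 9.98% of all tested genes called lower. In β-catenin KO cells 1 of the 7 (*Cited1*) was called, against 0.24% of all tested genes. The median there was -0.87, and 6 of 7 changes were negative. The difference between responses was called for all 7, against 2.4% of all tested genes. Calls depended on the fit: with only the 6 libraries of the comparison *Eya1* (adjusted p = 0.0211), *Six2* (0.0444) and *Meox2* (0.0354) were called lower, and *Eya1* also with quantile normalization (0.0475) and DESeq2 (0.00551). The study singled out *Six2*, *Cited1* and *Eya1*, and all of the induction genes below, in these libraries, and the other self-renewal genes were added with results of these data known, so the CTRL counts are not independent evidence of direction.

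In β-catenin KO cells *Six2*, the transcription factor that keeps NPCs undifferentiated, had 1236, 970 and 773 normalized counts at low against 798, 409 and 468 at high CHIR. The groups overlapped slightly, and the change was -0.87 ± 0.28 (adjusted p = 0.355). High CHIR libraries kept 56.2% of the low CHIR mean, against 5.26% in CTRL, where *Six2* went from 1540, 1642 and 943 to 69.2, 64.1 and 83.9 (difference 3.33, adjusted p = 0.000295). *Eya1*, its partner in the progenitor network, had a change of -0.88 (adjusted p = 0.0953). *Meox2* and *Wt1* had changes of -0.95 and -0.28, against -6.39 and -2.02 in CTRL.

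*Osr1*, a zinc finger gene of early kidney mesenchyme, had 1343, 863 and 946 in low and 1686, 624 and 680 in high CHIR, a change of -0.21 ± 0.29 (adjusted p = 0.984). *Foxc2* had 87.1, 61.0 and 72.9 in low and 112, 74.3 and 89.3 in high CHIR (0.31, adjusted p = 0.992). In CTRL *Osr1* and *Foxc2* changed by -4.68 and -3.15, and both differences were called (adjusted p = 4.43e-05 and 0.0123).

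All 8 induction genes had positive changes in β-catenin KO cells, with a median of 0.99. None was called in the fit of all 20 libraries, which has 1 date effect for all groups. For so few genes this is also what the share of 0.24% over all tested genes gives. In CTRL all 8 were called higher, with a median of 4.08, against 7.46% of all tested genes called higher. *Lhx1*, a homeobox gene of the renal vesicle, had 14.0, 109 and 327 in low and 183, 601 and 992 in high CHIR (2.56 ± 0.74, adjusted p = 0.251). *Jag1*, a Notch ligand, had 185, 664 and 1425 in low and 906, 2293 and 4279 in high CHIR (1.89 ± 0.48, adjusted p = 0.167). *Wnt4*, the ligand that drives the epithelial transition, had 30.1, 831 and 634 in low and 252, 2387 and 1200 in high CHIR (1.82 ± 0.69, adjusted p = 0.502). With only the 6 libraries of the comparison, where the date effect is that of these cells alone, *Jag1* (adjusted p = 0.00195), *Lhx1* (0.00896) and *Wnt4* (0.0347) were called higher, and *Jag1* also with DESeq2 (0.00708). Each was higher in high CHIR on every date, while the groups overlapped, since the low CHIR library of date 3 (and for *Wnt4* also that of date 2) exceeded the high CHIR library of date 1.

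The difference from CTRL was called for 2 of the 8, *Wnt4* (-4.51, adjusted p = 0.0230) and *Cdh3* (P-cadherin, -2.24, adjusted p = 0.0301). Over all tested genes it was called for 2.4%. For *Jag1* and *Lhx1* it was -2.24 and -2.36 (adjusted p = 0.106 and 0.310). *Lef1* had 62.3, 660 and 532 in low and 93.6, 677 and 1020 in high CHIR (0.52 ± 0.65, adjusted p = 0.976), with a difference of -3.57 (adjusted p = 0.0568). *Emx2* (1.01), *Ovol1* (0.96) and *Cdh4* (0.26) had adjusted p of 0.814, 0.723 and 0.965 in β-catenin KO cells. *Cdh4* had 3989 in low and 1991 in high CHIR on date 1, but higher values in high CHIR on dates 2 and 3.

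**Figure D5:**
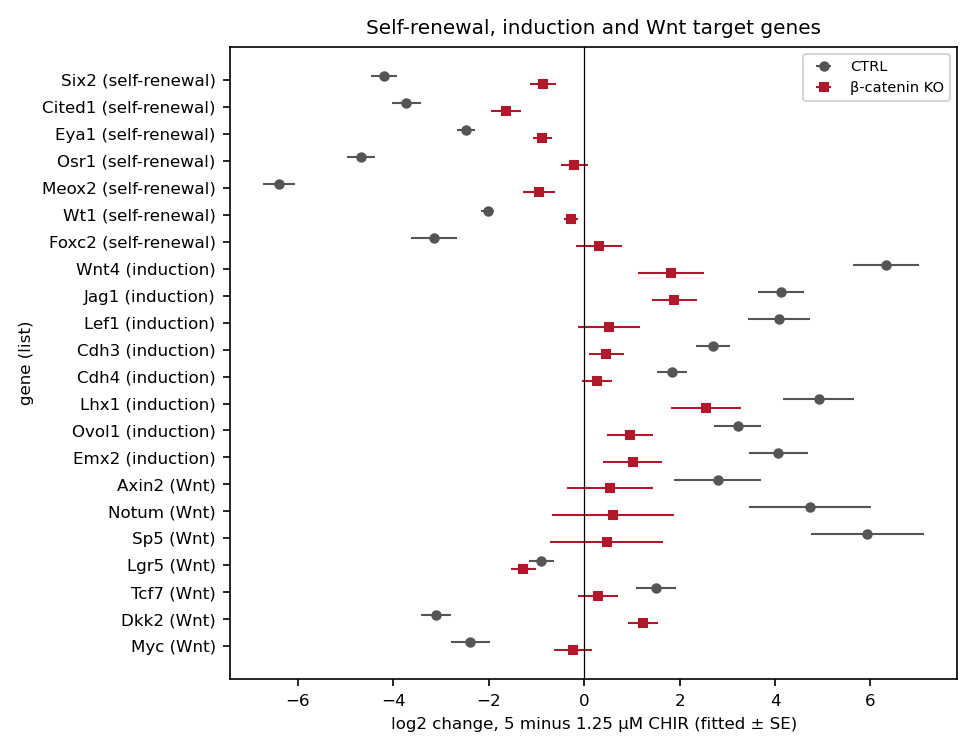
Fitted log2 change ± SE from 1.25 to 5 µM CHIR of the tested self-renewal, induction and Wnt target genes in CTRL and β-catenin KO cells. The β-catenin KO points lie nearer to 0 than the CTRL points for every gene except *Lgr5*, and *Dkk2* and *Foxc2* lie on opposite sides of 0 in the 2 kinds of cell.

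Of 23 Wnt feedback and target genes, 8 have an identifier (34.8%), and none of the 8 was called in β-catenin KO cells, which is also what the share of 0.24% over all genes gives for so few. Their median change was 0.49, against 2.15 in CTRL, where 5 were called higher and 3 lower. Only genes in the authors' tables of comparisons have a symbol, and 2311 of the 3939 tested genes with a symbol were called in CTRL. The CTRL calls of these 8 genes thus come in part from that selection. *Axin2*, *Notum* and *Sp5* had changes of 0.54 ± 0.91, 0.60 ± 1.27 and 0.47 ± 1.18 (adjusted p = 0.996, 0.999 and 0.999). Within dates *Axin2* changed by 0.38, 0.41 and 0.84 and *Notum* by 1.44, -0.46 and 0.83. *Tcf7* and *Myc* had changes of 0.29 and -0.24 (adjusted p = 0.986 and 0.996).

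*Dkk2*, a secreted regulator of Wnt receptors, was the gene of this list whose response differed from CTRL by the test. It had 529, 272 and 225 in low and 1114, 565 and 677 in high CHIR, higher on every date and without overlap (1.24 ± 0.31, adjusted p = 0.167, but called with only the 6 libraries at 0.0138 and with DESeq2 at 0.00551). In CTRL it went from 198, 106 and 117 to 22.7, 18.2 and 7.84, a change of -3.10, and the difference was 4.34 ± 0.44 (adjusted p = 0.000124). *Lgr5*, an R-spondin receptor, had 356, 232 and 305 in low and 114, 97.5 and 155 in high CHIR (-1.28 ± 0.26, adjusted p = 0.0642), without overlap and with a change of -0.90 in CTRL. It was called lower with only the 6 libraries (0.0226), with quantile normalization (0.044) and with DESeq2 (0.00173).

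The remaining lists held few genes with an identifier, and 3 of their members were called. Since 0.24% of all tested genes were called, no call among so few members is also what the background share gives, and the counts of 0 say nothing particular about these lists. None of the 13 tested Wnt ligands, receptors and destruction complex genes and none of the 8 tested cadherins and catenins was called. Of 7 cAMP-responsive genes *Sst* was called lower, while the other 6 had changes of 0.06 to 0.75. Of 5 Notch genes *Heyl* was called higher, and *Hes1*, another Notch target, had a change of -0.36 (adjusted p = 0.808). No tested member was called among the NRF2 (3), cholesterol synthesis (3), integrated stress response (2), glycolysis and hypoxia (2), FGF/ERK feedback (4), BMP/TGF-beta feedback (4), Hedgehog (6), p53 (9) and proliferation (2) genes.

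Markers of other cell types were tested where an identifier was available. Of 10 stroma markers, *Meis1* and *Meis2* have one, and their summed normalized count was 2328 to 2967 in low and 1109 to 1654 in high CHIR, with *Meis1* called lower. Of 13 ureteric epithelium markers 4 were tested and none called, with sums of 498 to 939 in low and 574 to 1119 in high CHIR. The 1 endothelium marker tested, *Tek*, had 3.0 to 4.8 in low and 4.6 to 85.3 in high CHIR, and no leukocyte marker has an identifier. Their part in the results was not tested, and fewer cells of a type cannot be told apart from less RNA per cell.

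Promoter sequences of RefSeq (GRCm38.p6), from 250 bases before to 50 after each gene start, matched 20 of the 30 called genes with a symbol. The motifs were searched on both strands, and a match is a description and not evidence of a site. A cAMP response element (TGACGTCA) was in the promoter of 1 of the 20 genes, *Sst* (1 of their 28 promoters), and in 1.79% of all 32851 promoters. An AP-1 site (TGAGTCA) was in 2 of the 28 promoters, those of *Mmp13* and *Morrbid*, and in 5.2% of all, and a TCF/LEF core (CTTTGA) in 1 of the 28, that of *Limch1*, and in 16.0% of all. The promoters of *Sst* and *Mmp13*, the genes with the largest fitted fall and rise, are shown, at chr16:23890795-23891094 (minus strand) and chr9:7272264-7272563 (plus strand), with the motif in capitals.

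Sst: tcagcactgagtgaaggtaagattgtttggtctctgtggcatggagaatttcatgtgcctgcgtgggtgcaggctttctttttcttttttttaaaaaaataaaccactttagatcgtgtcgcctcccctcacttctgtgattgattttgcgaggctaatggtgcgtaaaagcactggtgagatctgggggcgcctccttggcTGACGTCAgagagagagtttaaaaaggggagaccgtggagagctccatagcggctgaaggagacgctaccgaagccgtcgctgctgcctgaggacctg

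Mmp13: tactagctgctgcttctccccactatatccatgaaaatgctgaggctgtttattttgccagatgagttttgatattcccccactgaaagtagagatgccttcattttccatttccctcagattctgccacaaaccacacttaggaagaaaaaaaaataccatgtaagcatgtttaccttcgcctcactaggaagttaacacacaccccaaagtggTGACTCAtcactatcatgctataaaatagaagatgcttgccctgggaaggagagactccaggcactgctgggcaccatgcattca

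The *Mmp13* sequence holds the AP-1 motif in its reverse complement. Both genes changed in the same direction in CTRL as in β-catenin KO cells, with differences between responses of -0.24 and 0.99 that were not called (adjusted p = 0.902 and 0.637).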

How the data were processed

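RNA was sequenced in 20 libraries. The authors deposited read counts divided by 1 size factor per library (unit: signal), for 31130 genes. The submitters' processing notes name bcl2fastq, STAR, Subread, featureCounts, Salmon and DESeq2 and, among genome builds, GRCm38, with no roles given. The authors' tables of comparisons hold fold changes and p-values, which were not used. Symbols (4316 genes) came from those tables, so genes with a symbol were selected for a difference there. All values were whole multiples (tolerance 0.01) of each library's smallest value, which gave reads for edgeR and DESeq2. In 2 libraries that value is within 0.01 of 1, so this says less there.

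Tests took in genes whose normalized counts averaged 10 or more over all libraries. limma 3.58.1 under R 4.3.3 was fitted to log2(normalized count + 1) values (1 mean per group, date as a block, mean-variance trend, 10 residual degrees of freedom). Fold changes are on that scale and understate low genes. The fit used all 20 libraries so that the 8 groups share the spread, with 1 date effect common to all groups. The pairing check correlated gene-wise deviations from group means between libraries, and same-date pairs had r of 0.721, 0.603 and 0.477 in β-catenin KO and 0.389, 0.047 and 0.303 in CTRL. Dates pair the libraries by the label in this comparison. edgeR 4.0.16 and DESeq2 1.42.0 were alternatives. Counting limits cover counting error only.

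The comparison, gene lists and naming rule were chosen with earlier results of these data known. Named were the 12 largest called rises and falls with a symbol and a mean of at least 50, the 5 largest called differences from CTRL each way, members of the self-renewal, induction and Wnt target lists, called members of other lists, and 2 genes without a symbol. Leaving out both date 1 libraries, or keeping only them, was added after seeing the data. A planned exact permutation test of *Ctnnb1* was not run, as no identifier was paired with it.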

Additional observations from a re-analysis of the deposited data

Results flagged for a closer look

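These results are listed because the response to CHIR in β-catenin KO cells differed from that in CTRL by the tested difference (limma, Benjamini-Hochberg). Such a difference was called for 400 genes. Values are the β-catenin KO response minus the CTRL response on the log2 scale.

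Of the self-renewal genes, *Osr1* (4.48), *Foxc2* (3.46), *Six2* (3.33), *Cited1* (2.09), *Wt1* (1.74), *Eya1* (1.60) and *Meox2* (5.45) were above CTRL. *Ch25h* (7.53), *Ntsr1* (6.88), *Nxph1* (5.91) and *Fgf1* (5.28) had, with *Meox2*, the largest called differences above CTRL among genes with a symbol and a mean of at least 50. *Ntsr1* and *Nxph1* had at most 1 read in each high CHIR CTRL library, and *Ch25h* had normalized counts of 2.27, 12.8 and 0 there, so the values and order of these 3 depend on the pseudocount. *Dkk2* (4.34) went opposite ways in the 2 kinds of cell.

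Among genes called in β-catenin KO cells, those that fell less than in CTRL were *Robo2* (2.62), *Apom* (2.45), *Snai2* (1.92), *Tgfbi* (1.68), *Limch1* (1.38), *Frat1* (1.36) and *Pgm2l1* (1.02). Those that rose more were ENSMUSG00000018217 (3.20), *Cspg4* (2.06), *Hsd17b14* (1.97) and ENSMUSG00000030560 (0.75), and those that rose less were *Scube3* (-2.35) and *AU021092* (-2.32). *Pgm2l1*, ENSMUSG00000030560, *Scube3* and *AU021092* fall outside the naming rule and were chosen after their values were seen.

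Below CTRL were *Cd200* (-4.70), *Wnt4* (-4.51), *Vegfc* (-4.49), *Rnase12* (-4.48), *Gap43* (-4.34) and *Cdh3* (-2.24).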

How the results depend on the processing

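The count of genes called in β-catenin KO cells (40) was within 1.5 times of the main value with no filter (38), a minimum mean of 100 (35), 0.25 (39) or 5 (50) as the pseudocount, quantile normalization (52), edgeR (45) and a log2 change over 1 (35). Without the replicate block the pairing by date was lost and 3 genes were called in β-catenin KO, 112 for the difference from CTRL and 1793 in CTRL. With only the libraries compared, block kept, the counts were 225 in β-catenin KO and 906 in CTRL. With the 12 libraries they were 12 in β-catenin KO and 193 for the difference, and with DESeq2 197 and 781. A log2 change over 1 gave 1762 in CTRL. Leaving out 1 library at a time gave 7 to 53 in β-catenin KO, 206 to 554 for the difference and 1764 to 3990 in CTRL, the lowest without CTRL low CHIR date 2. Without date 1 the count in β-catenin KO was 19, and with date 1 alone it was 0 and the difference 151. The cause was not tested.

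The 40 called genes had 715 values under alternatives, of which 425 were also called, 290 were not and none reversed. Reversals were in genes not called. With 1 library left out in turn the change ran from -1.20 to 1.75 for *Sp5*, -0.13 to 0.66 for *Cdh4*, -0.34 to 1.33 for *Lef1*, -1.02 to 0.12 for *Nxph1*, -0.0071 to 0.60 for *Foxc2*, -0.0878 to 0.96 for *Tcf7*, -0.60 to 1.78 for *Axin2*, -1.30 to 1.98 for *Notum* and -0.72 to 0.0857 for *Myc*. With date 1 alone it was -1.0 for *Cdh4*, -0.26 for *Tcf7*, 0.33 for *Osr1*, 0.87 for *Myc* and 0.14 for *Cd200*.

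With 3 libraries per condition and 2 kinds of library by date, a missed call does not show that a gene did not change. In fits with a library left out, a group of 2, or 1 with date 1 alone, is assumed to vary like the others.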
